A study of Mus musculus with 8 samples.

Results

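The 10 genes described here code for proteins that coat lipid droplets or help to form them: the 5 perilipins Plin1 to Plin5, the CIDE proteins Cidea and Cidec, the fat storage-inducing transmembrane proteins Fitm1 and Fitm2, and seipin (Bscl2). They were chosen by name, and all 10 were found among the 35976 rows of the BAC table and the 21828 rows of the 3T3-L1 table. RNA-seq libraries were made from oligo(dT)-selected RNA of 2 mouse lines, both labelled WT and both given adipogenic differentiation with 1 cocktail. BAC cells at day 4 were compared with BAC cells at day 0, and 3T3-L1 cells at day 6 with 3T3-L1 cells at day 0, with 2 libraries in each of the 4 groups. BAC is a brown preadipocyte line taken from the interscapular fat of newborn mice and immortalised with a viral large T antigen, and 3T3-L1 is a fibroblast line from mouse embryo that forms white-type adipocytes. IBMX, indomethacin, dexamethasone, insulin and the thyroid hormone T3 were present until day 2, and insulin and T3 alone after that. Line, day of sampling and table differ together, so a difference between the lines cannot be told apart from a difference between day 4 and day 6. Whether a group's 2 libraries are from different cultures is not in the labels, and the p-values measure the spread between these libraries, which may be technical.

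A lipid droplet is a core of triglyceride and sterol ester inside a single layer of phospholipid. Seipin sits in the endoplasmic reticulum where droplets bud, and the FITM proteins bind triglyceride there. Perilipins cover the droplet surface and control the access of lipases, and the CIDE proteins gather where droplets touch and pass lipid from the smaller into the larger one. Brown adipocytes hold many small droplets beside their mitochondria, whereas a mature white adipocyte holds a single large one.

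Total counts of the 8 libraries lay between 9045849 and 10160636. The adipocyte markers Adipoq, Fabp4, Pparg, Lpl and Cfd summed to 18289 to 19192 CPM (counts per 1000000 of the scaled library size) in BAC at day 4, against 885.4 to 896.5 CPM in BAC at day 0, and to 37402 to 38906 CPM in 3T3-L1 at day 6, against 823.3 to 932.3 CPM in 3T3-L1 at day 0. The brown markers Ucp1, Ppargc1a, Cox8b, Elovl3 and Cox7a1 summed to 318.0 to 398.1 CPM in BAC at day 4 and at most 1.54 CPM in BAC at day 0, and to at most 75.8 CPM in 3T3-L1 at day 6 and at most 20.6 CPM in 3T3-L1 at day 0. Ucp1, the uncoupling protein that defines brown fat, had 427 and 173 counts in BAC at day 4, none in BAC at day 0, 2 and 0 counts in 3T3-L1 at day 6, and none in 3T3-L1 at day 0. Cox8b, Elovl3 and Cox7a1 were likewise higher in BAC at day 4 than in 3T3-L1 at day 6. Ppargc1a was close in these groups, at 46.7 and 46.4 CPM in BAC and 41.7 and 42.5 CPM in 3T3-L1. At day 0 it had 0.631 and 1.09 CPM in BAC and 20.4 and 20.2 CPM in 3T3-L1. Dlk1, Pdgfra, Thy1, Col1a1 and Cd34, markers of preadipocytes or fibroblasts, summed to 170.6 to 178.0 CPM in BAC at day 4, against 8899 to 8941 CPM in BAC at day 0, and to 2116 to 2252 CPM in 3T3-L1 at day 6, against 13186 to 13677 CPM in 3T3-L1 at day 0. This list thus fell in both lines, where most tested members rose, and was left at a higher level in 3T3-L1. Its part in the results was not tested. The 5 macrophage markers summed to 2.90 to 9.75 CPM over the 8 libraries, with Adgre1 and Ptprc at 0 counts in all of them. The 5 markers of skeletal muscle summed to at most 0.242 CPM in BAC at day 4 and at most 0.901 CPM in BAC at day 0, and to 5.35 to 5.91 CPM in 3T3-L1 at day 6 and 0.852 to 1.52 CPM in 3T3-L1 at day 0, with Myod1 at 0 counts in all 8 libraries. The 4 endothelial markers reached at most 1.16 CPM, and the 4 hepatocyte markers at most 6.60 CPM. In such bulk samples, fewer cells of a type and less RNA per cell cannot be told apart.

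The sequences just upstream of 5 members are shown as a description. The members are Plin1 and Cidec, which rose steeply in both lines, and Plin4 and Plin5, neighbours with unlike values. Plin3, whose change had opposite signs in the 2 lines, is shown as well. These stretches are RefSeq sequence of build GRCm38.p6. They end at the base before the annotated gene, 5′ to 3′ on the minus strand for all 5. The stretches are chr7:79732905-79733026 for Plin1, chr6:113435761-113435910 for Cidec, chr17:56109949-56110032 for Plin4, chr17:56117607-56117756 for Plin5 and chr17:56290512-56290661 for Plin3. Capitals mark matches on either strand to TTGCNNAA (the C/EBP type), AGGTCA (a nuclear receptor half-site), CCAAT and GGGCGG (the GC box).
Plin1: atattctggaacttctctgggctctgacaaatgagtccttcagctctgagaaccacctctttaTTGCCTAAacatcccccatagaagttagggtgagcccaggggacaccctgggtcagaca
Cidec: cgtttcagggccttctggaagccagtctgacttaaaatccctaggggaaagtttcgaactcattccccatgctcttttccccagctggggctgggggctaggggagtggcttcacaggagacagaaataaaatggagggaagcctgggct
Plin4: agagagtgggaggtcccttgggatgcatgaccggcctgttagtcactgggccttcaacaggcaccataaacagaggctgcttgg
Plin5: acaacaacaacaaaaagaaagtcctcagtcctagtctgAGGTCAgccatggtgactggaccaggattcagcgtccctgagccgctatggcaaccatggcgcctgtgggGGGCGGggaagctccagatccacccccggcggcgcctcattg
Plin3: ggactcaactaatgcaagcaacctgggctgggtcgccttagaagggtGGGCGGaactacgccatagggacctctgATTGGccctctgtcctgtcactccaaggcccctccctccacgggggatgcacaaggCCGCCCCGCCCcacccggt

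The same letters, and also TATAAA and CACGTG (the E-box), were searched on both strands in the 250 bases before each start listed by RefSeq, in 13 windows of 9 members. Some of these starts are not the edges of the genes at which the stretches above end. A match counted here therefore need not be in a stretch shown, as with the CCAAT of Plin4. Matches to different motifs were counted apart, whether or not they overlapped. CCAAT was found in 5 of the 13 windows (in Plin2, Plin3, Plin4, Plin5 and Bscl2), and in 33.8% of all 32851 mouse windows of that length. AGGTCA was found in 3 of the 13 windows (Plin2, Plin5 and Bscl2), against 14.0% of all windows, and TTGCNNAA in 2 of the 13 (Plin1 and Cidec), against 9.56%. GGGCGG was found in 4 of the 13 windows (Plin3, Fitm2 and both of Plin5), against 32.7%. No test was made on these shares, and windows of 1 gene can overlap. Neither TATAAA nor CACGTG was found in these 13 windows, and the shares over all windows were 12.4% and 6.02%. A match is a description of the letters only.

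In BAC, 9 of the 10 members passed the filter on low counts. All 9 tested members were higher at day 4 than at day 0 and none was lower, where 39.1% of all 14028 genes tested were higher and 39.4% lower (5488 and 5526 genes, or 4298 and 6795 on library size alone). The median log2 change over these 9 was 3.04, beside 0.0078 over all genes. In 3T3-L1, 8 members passed the filter, of which 7 were higher and 1, Plin3, was lower at day 6 than at day 0. There, 39.8% of all 11902 genes tested were higher and 39.6% lower (4736 and 4717 genes, or 3424 and 6306 on library size alone). The median over these 8 was 4.28, or 3.84 with Cidea set at its lower bound, beside 0.00073 over all genes. Plin5 and Cidea in BAC, and Plin1 and Cidea in 3T3-L1, reached the filter's minimum only in the differentiated libraries, so a rise of these was fixed by the filter and their counts and the medians support nothing. Of the rest, 7 of 7 were higher in BAC, and 5 were higher and 1 lower in 3T3-L1. Together the members held 0.317% and 0.294% of the counts in BAC at day 4, against 0.0476% and 0.0472% in BAC at day 0. They held 0.715% and 0.709% in 3T3-L1 at day 6, against 0.0491% and 0.0477% in 3T3-L1 at day 0. Adjusted p-values of single genes are from edgeR (quasi-likelihood, two-sided, Benjamini-Hochberg over all genes tested), and log2 changes are given with their standard error (SE). CPM values were normalised within each line.

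**Figure D1:**
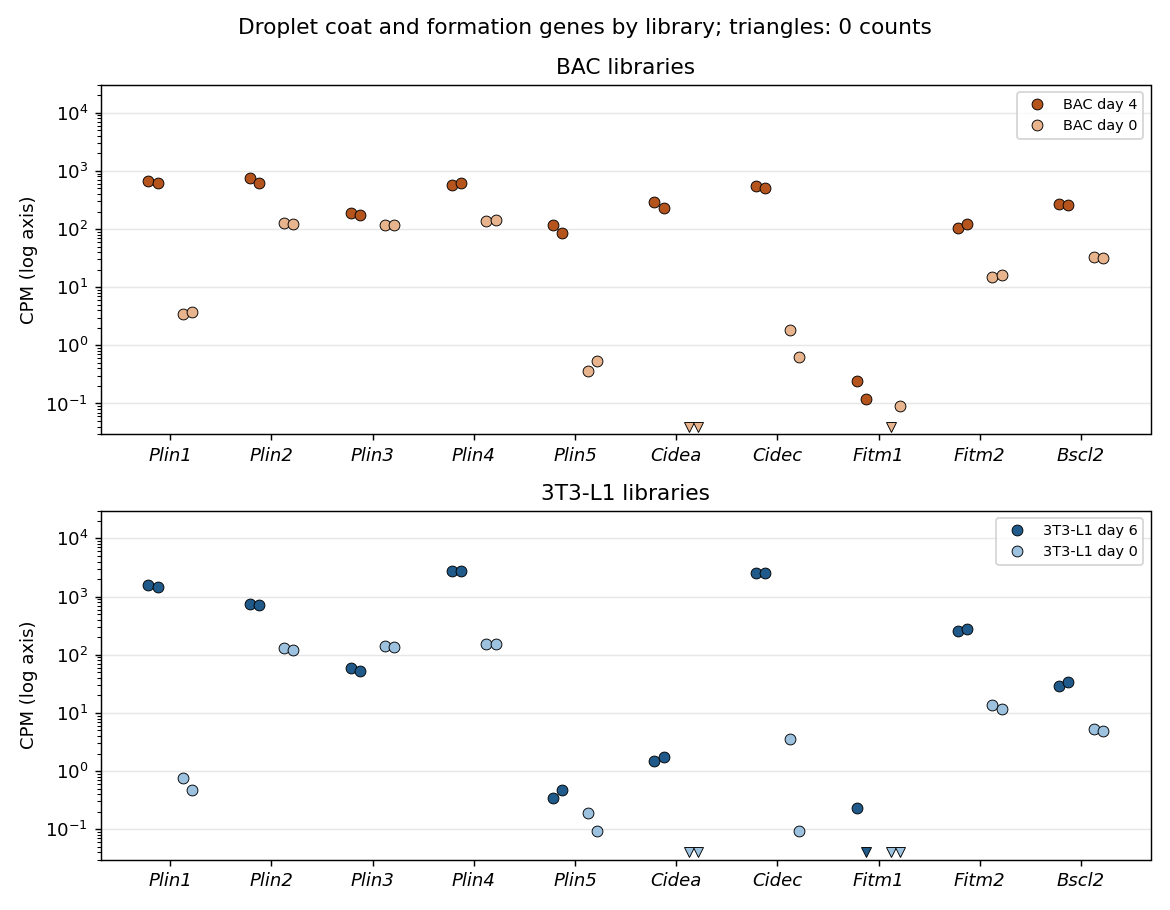
CPM of the 10 members in each library on a log axis, with BAC above and 3T3-L1 below. Each point is 1 library, dark for day 4 or day 6 and light for day 0, and triangles at the bottom are libraries with 0 counts. Cidea had no counts in the 4 day 0 libraries, and Plin3 was the only tested member whose day 6 libraries lay below its day 0 libraries.

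Plin1 codes for the main coat protein of adipocyte droplets, which holds back lipolysis until protein kinase A phosphorylates it. It lies on chromosome 7 (RefSeq, GRCm38.p6, 79721164 to 79732904, minus strand). Plin1 had 658.4 and 607.0 CPM in BAC at day 4, against 3.51 and 3.71 CPM in BAC at day 0. It had 1585 and 1481 CPM in 3T3-L1 at day 6, against 0.757 and 0.474 CPM in 3T3-L1 at day 0, where 8 and 5 reads were counted. The groups did not overlap in either line, and the spread within each group was small beside the gap. The log2 change was 7.45 ± 0.12 in BAC (adjusted p = 3.3e-15), with 107 of the 14028 genes rising more. In 3T3-L1 it was 11.25 ± 0.12 (adjusted p = 1.1e-23), with 14 of 11902 genes rising more. Plin1 reached the filter's minimum there only at day 6, so this rise was fixed by the filter and is given as a description. The rise in BAC was smaller than that in 3T3-L1 by a log2 difference of -3.83 ± 0.32 (edgeR adjusted p = 2.2e-10). Both the higher level at the end and the lower level at day 0 of 3T3-L1 enter that difference.

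Plin2 codes for the perilipin found on droplets of most cell types, which is degraded when it is not bound to lipid. Plin2 had 750.7 and 611.4 CPM in BAC at day 4, against 126.5 and 121.7 CPM in BAC at day 0. In 3T3-L1 it had 731.5 and 718.2 CPM at day 6, against 129.5 and 121.2 CPM at day 0. The 4 differentiated libraries of both lines lay within 611.4 to 750.7 CPM, and the 4 day 0 libraries within 121.2 to 129.5 CPM. With differentiation the log2 change came to 2.46 ± 0.10 in BAC (adjusted p = 8.3e-12) and 2.53 ± 0.05 in 3T3-L1 (adjusted p = 2.2e-19). The difference between the changes, -0.10 ± 0.11, was not past the test (edgeR adjusted p = 0.45), but without replicate 1 of BAC day 4 it was -0.26 and past it (adjusted p = 0.015).

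Plin3, also called TIP47, codes for a perilipin that is stable in the cytosol and moves to new droplets. It was the member whose direction differed between the lines. In BAC it had 189.9 and 174.6 CPM at day 4, against 118.2 and 115.0 CPM at day 0. Its level in 3T3-L1 was 58.5 and 52.2 CPM at day 6, against 141.7 and 136.7 CPM at day 0. The day 4 libraries thus lay above the day 0 libraries in BAC, and the day 6 libraries below them in 3T3-L1, with no overlap in either. The change came to a log2 value of 0.64 ± 0.08 in BAC (adjusted p = 2.2e-06) and -1.33 ± 0.07 in 3T3-L1 (adjusted p = 1.6e-13), a fold of 1.56 and 0.398. The difference between the changes was 1.95 ± 0.10 (edgeR adjusted p = 2.3e-14). Among all genes tested the rise in BAC was modest, with 4053 genes rising more, and 1662 genes fell more than Plin3 in 3T3-L1. Under every alternative run, Plin3 kept its sign in each line, with a log2 change of 0.38 to 0.71 in BAC and -1.62 to -1.25 in 3T3-L1.

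Plin4, formerly S3-12, codes for a long perilipin with many repeats that is found on small droplets of adipocytes. Plin4 had 560.5 and 625.5 CPM in BAC at day 4, against 137.5 and 144.3 CPM in BAC at day 0. In 3T3-L1 it had 2738 and 2760 CPM at day 6, against 150.7 and 155.5 CPM at day 0. The differentiated libraries of BAC stood far below those of 3T3-L1, whereas the day 0 libraries of the 2 lines were close. The log2 change was 2.07 ± 0.08 in BAC (adjusted p = 8.4e-12) and 4.17 ± 0.06 in 3T3-L1 (adjusted p = 3.9e-22), and the difference was -2.12 ± 0.10 (edgeR adjusted p = 2.7e-15).

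Plin5 codes for the perilipin of oxidative tissues, which binds mitochondria and the lipase ATGL. It had 968 and 708 counts in BAC at day 4, against 4 and 6 counts in BAC at day 0, or 115.7 and 85.6 CPM against 0.360 and 0.543 CPM. In 3T3-L1 only 3 and 4 counts were found at day 6, against 2 and 1 counts at day 0. Plin5 was therefore at about 100 CPM in BAC at day 4 and below 0.5 CPM in every 3T3-L1 library. The log2 change in BAC was 7.76 ± 0.25 (adjusted p = 7.5e-13), with 95 genes rising more. Plin5 reached the filter's minimum in BAC only at day 4, so this rise was fixed by the filter and is given as a description. The 3T3-L1 row did not pass the filter on low counts, and its ratio of day 6 over day 0 was 2.86 with an exact 95% interval of 0.653 to 17.1. Such intervals cover counting error only. Plin5 entered the fit over all 8 libraries only through BAC day 4, so the difference between the changes there, 6.29 ± 1.71, is given as a description (edgeR adjusted p = 0.0028, or 0.043 with no filter on low counts and 0.093 without replicate 2 of 3T3-L1 day 0).

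Plin4, Plin5 and Plin3 all lie on chromosome 17, on the minus strand. Plin4 (56100587 to 56109948) and Plin5 (56111597 to 56117606) are 1.65 kb apart with no protein-coding gene between them. Plin3 (56278962 to 56290511) is 161.4 kb from Plin5, with 7 protein-coding genes between. The 2 closest of these perilipins changed unlike each other: in BAC the log2 change of Plin5 was 7.76 and that of Plin4 2.07, and in 3T3-L1 Plin4 rose 18.0-fold while Plin5 stayed at 7 counts over both day 6 libraries.

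The makeup of the perilipin transcripts was compared as CPM per kb of the longest transcript with a RefSeq mRNA. In BAC at day 4, Plin2 made up 40.2% ± 2.4 of the perilipin sum (SD, n = 2 libraries) and Plin1 37.0% ± 1.1, followed by Plin4 with 11.6% ± 1.9, Plin5 with 5.63% ± 0.72 and Plin3 with 5.59% ± 0.15. In 3T3-L1 at day 6, Plin1 made up 47.7% ± 1.1, Plin4 28.5% ± 0.9 and Plin2 22.9% ± 0.3, and Plin3 made up 0.905% ± 0.050. At day 0, Plin2 made up 52.9% ± 0.8 of the perilipin sum in BAC and 50.4% ± 1.0 in 3T3-L1. Plin3 made up 25.7% ± 0.2 in BAC and 29.0% ± 0.1 in 3T3-L1, and Plin4 19.7% ± 0.9 in BAC and 20.2% ± 1.0 in 3T3-L1. Plin1 made up 1.52% ± 0.08 in BAC and 0.243% ± 0.073 in 3T3-L1. The sum itself was 894.6 ± 76.9 CPM per kb in BAC at day 4, against 124.3 ± 1.5 CPM per kb in BAC at day 0, and 1677 ± 42 CPM per kb in 3T3-L1 at day 6, against 131.6 ± 3.6 CPM per kb in 3T3-L1 at day 0. These shares were not tested. The order rests on the length used: with the union of all annotated exons, Plin4 was the first share in 3T3-L1 at day 6 (46.4%, with Plin1 at 32.1%), and Plin3 passed Plin2 in 3T3-L1 at day 0 (37.1% and 36.0%).

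**Figure D2:**
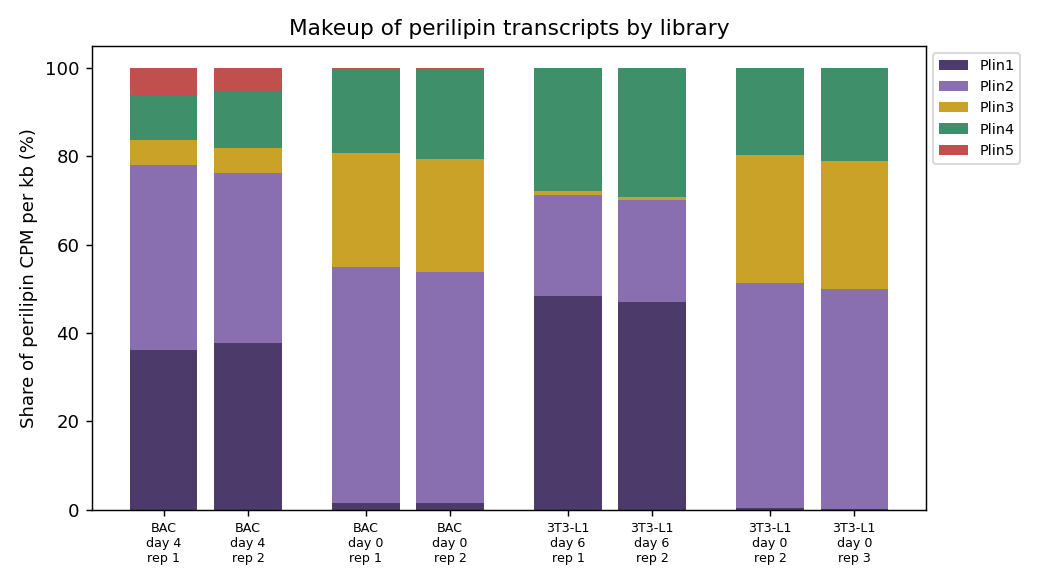
Share of each perilipin in the sum of perilipin CPM per kb, in percent, with 1 bar for each library. The Plin5 band is 5.13% to 6.14% of the 2 BAC day 4 bars and under 1% of every other bar, and Plin3 takes up 25.6% to 29.1% of each day 0 bar.

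Cidea, a CIDE gene best known from brown fat, lies on chromosome 18 (67343564 to 67367794, plus strand). It had 2424 and 1905 counts in BAC at day 4, or 289.8 and 230.3 CPM, against 0 and 0 counts in BAC at day 0. In 3T3-L1, Cidea had 13 and 15 counts at day 6, or 1.51 and 1.75 CPM, against 0 and 0 counts at day 0. Both lines thus started from no detected reads, and the CPM reached was far higher in BAC, although levels were not tested between the lines. Against a floor of 3 counts over the day 0 group, Cidea was at least 1921-fold higher in BAC at day 4 than at day 0 (edgeR adjusted p = 9.6e-14) and at least 11.4-fold higher in 3T3-L1 at day 6 than at day 0 (edgeR adjusted p = 2.9e-06). In both lines Cidea reached the filter's minimum only in the differentiated libraries, so both rises were fixed by the filter and are given as a description. No gene had a larger fitted rise in BAC, and 128 genes had a larger one in 3T3-L1, but a fitted change from a group with no counts is no bound. For the same reason edgeR gave no usable error for the difference between the lines (adjusted p = 0.9999, with an SE of 16817 on the log2 scale), whereas DESeq2 gave an adjusted p of 0.0011. The brown marker Ucp1 was likewise higher in replicate 1 than in replicate 2 of BAC day 4, at 51.1 and 20.9 CPM.

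Cidec, also known as Fsp27, is needed for the single large droplet of white fat. It had 557.3 and 504.3 CPM in BAC at day 4, against 1.80 and 0.633 CPM in BAC at day 0 (20 and 7 counts). In 3T3-L1 it had 2511 and 2524 CPM at day 6, against 3.60 and 0.0948 CPM at day 0, which are 38 counts in replicate 2 and 1 count in replicate 3. The differentiated libraries were close to each other in both lines, and the day 0 libraries were not, above all those of 3T3-L1. Adipoq and Fabp4 were also higher in that replicate 2 than in replicate 3, with 15 against 5 and 173 against 81 counts; their part in the Cidec value was not tested. The log2 change was 8.75 ± 0.18 in BAC (adjusted p = 9.3e-15) and 10.40 ± 0.19 in 3T3-L1 (adjusted p = 2.0e-20), with 56 and 23 genes rising more. Leaving out a day 0 library moved its size: in BAC it was 9.66 without replicate 1 and 8.17 without replicate 2, and in 3T3-L1 14.51 without replicate 2 and 9.44 without replicate 3. The difference between the changes, -1.68 ± 0.67, was just past the test (edgeR adjusted p = 0.034). It was lost without replicate 1 (-0.60, adjusted p = 0.72) or replicate 2 (-2.09, 0.053) of BAC day 0, without replicate 3 of 3T3-L1 day 0 (-0.72, 0.14), without replicate 1 (-1.69, 0.072) or replicate 2 (-1.68, 0.086) of 3T3-L1 day 6, with no filter on low counts (0.24) and with DESeq2 (0.52). Without replicate 2 of 3T3-L1 day 0 it was -5.80 (adjusted p = 2.5e-06).

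Within the CIDE pair, counted per kb, Cidea made up 42.9% ± 2.2 of the sum in BAC at day 4 (SD, n = 2) and 0.0995% ± 0.010 in 3T3-L1 at day 6. Cidec made up the rest, and all of it at day 0. The sum of both was 541.8 ± 59.5 CPM per kb in BAC at day 4 and 1465 ± 6 CPM per kb in 3T3-L1 at day 6. The third gene of the family, Cideb, known from liver, had 14 and 21 counts in BAC at day 4, against 14 and 19 counts in BAC at day 0, and 40 and 38 counts in 3T3-L1 at day 6, against 14 and 14 counts in 3T3-L1 at day 0. Cideb passed the test in 3T3-L1 (log2 change 1.76 ± 0.28, edgeR adjusted p = 1.2e-05) and not in BAC (0.49 ± 0.36, adjusted p = 0.22).

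Fitm2, the broadly expressed FITM gene on chromosome 2 (163468703 to 163472629, minus strand), had 103.7 and 119.6 CPM in BAC at day 4, against 15.2 and 16.4 CPM in BAC at day 0. Its 3T3-L1 values were 259.2 and 277.9 CPM at day 6, against 13.8 and 11.7 CPM at day 0. The groups were well apart in both lines. Its log2 change was 2.82 ± 0.11 in BAC (adjusted p = 3.7e-12) and 4.40 ± 0.08 in 3T3-L1 (adjusted p = 1.5e-20), and the difference was -1.60 ± 0.15 (edgeR adjusted p = 1.5e-09). Fitm1, the FITM gene of skeletal and heart muscle, was at or under the floor of 3 counts in every group, with 2 and 1 counts at BAC day 4, 0 and 1 counts at BAC day 0, 2 and 0 counts at 3T3-L1 day 6, and no counts at 3T3-L1 day 0. It was not tested, and a level below that floor (0.135 to 0.180 CPM) was not detectable at this depth.

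Bscl2 codes for seipin, whose loss causes generalised lipodystrophy in people. It lies on chromosome 19 (8837467 to 8848683, plus strand). Bscl2 had 270.1 and 255.6 CPM in BAC at day 4, against 32.5 and 31.3 CPM in BAC at day 0. In 3T3-L1 the values were 29.5 and 33.7 CPM at day 6, against 5.40 and 4.93 CPM at day 0. The differentiated 3T3-L1 libraries were thus at about the level of undifferentiated BAC, although levels were not tested between the lines. Both log2 changes passed the test, at 3.04 ± 0.08 in BAC (adjusted p = 1.4e-13) and 2.61 ± 0.14 in 3T3-L1 (adjusted p = 5.4e-13). The difference, 0.40 ± 0.17, was just past the test (edgeR adjusted p = 0.047). It was lost without replicate 1 of BAC day 4 (adjusted p = 0.078), without replicate 2 (0.24) or replicate 3 (0.082) of 3T3-L1 day 0, without replicate 1 of 3T3-L1 day 6 (0.16), with no filter on low counts (0.075) and with DESeq2 (0.057).

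**Figure D3:**
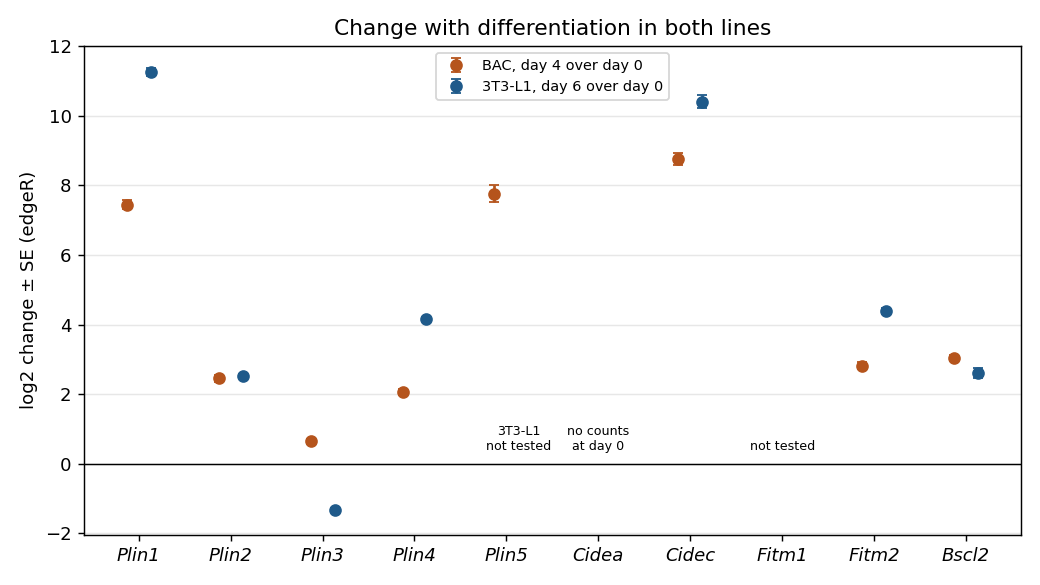
Log2 change of each member in BAC (day 4 over day 0) and in 3T3-L1 (day 6 over day 0), with bars for the SE of edgeR. Plin1, Plin4 and Fitm2 lie higher in 3T3-L1, Plin2 lies at about 2.5 in both lines, and Plin3 lies on opposite sides of 0. Cidea has no point because it had no counts at day 0.

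The difference in change between the lines was tested for 9 members. Plin5 is left out of the counts here, since it passed the filter only through BAC day 4. Of the other 8, the change in BAC was the higher one in 2 (Plin3 and Bscl2), where 25.3% of all 12863 genes tested were higher, and the lower one in 4 (Plin1, Plin4, Cidec and Fitm2), where 33.7% were lower. Plin2 and Cidea were not past the test. With the losses given above, the differences of Plin1, Plin3, Plin4 and Fitm2 were past the test under every alternative run.

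Per kb, the order of the members differed between groups. In BAC at day 4, Plin2, Plin1 and Cidec led with 360.7 ± 52.2, 330.2 ± 19.0 and 308.6 ± 21.8 CPM per kb (SD, n = 2), and the libraries of neighbours in that order overlapped. Cidea followed with 233.2 ± 37.7, Bscl2 with 134.0 ± 5.2 and Plin4 with 103.0 ± 8.0 CPM per kb. In 3T3-L1 at day 6, Cidec led with 1464 ± 6 CPM per kb, then Plin1 with 799.9 ± 38.4, Plin4 with 477.6 ± 2.6 and Plin2 with 383.9 ± 5.0 CPM per kb, and no neighbours among these overlapped. At day 0 the first 3 were Plin2, Plin3 and Plin4 in both lines, with no overlap between neighbours. These orders hold for that transcript length only. Per kb of the exon union, a length chosen after seeing the data, BAC at day 4 had Cidec first (286.0 ± 20.2), then Cidea (233.2 ± 37.7), Plin2 (193.9 ± 28.1), Plin1 (136.1 ± 7.8) and Plin4 (102.6 ± 8.0), and Bscl2 was at 44.6 ± 1.7. In 3T3-L1 at day 6 Plin4 (475.9 ± 2.6) then passed Plin1 (329.7 ± 15.8) behind Cidec, and in 3T3-L1 at day 0 Plin3 and Plin2 overlapped.

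**Figure D4:**
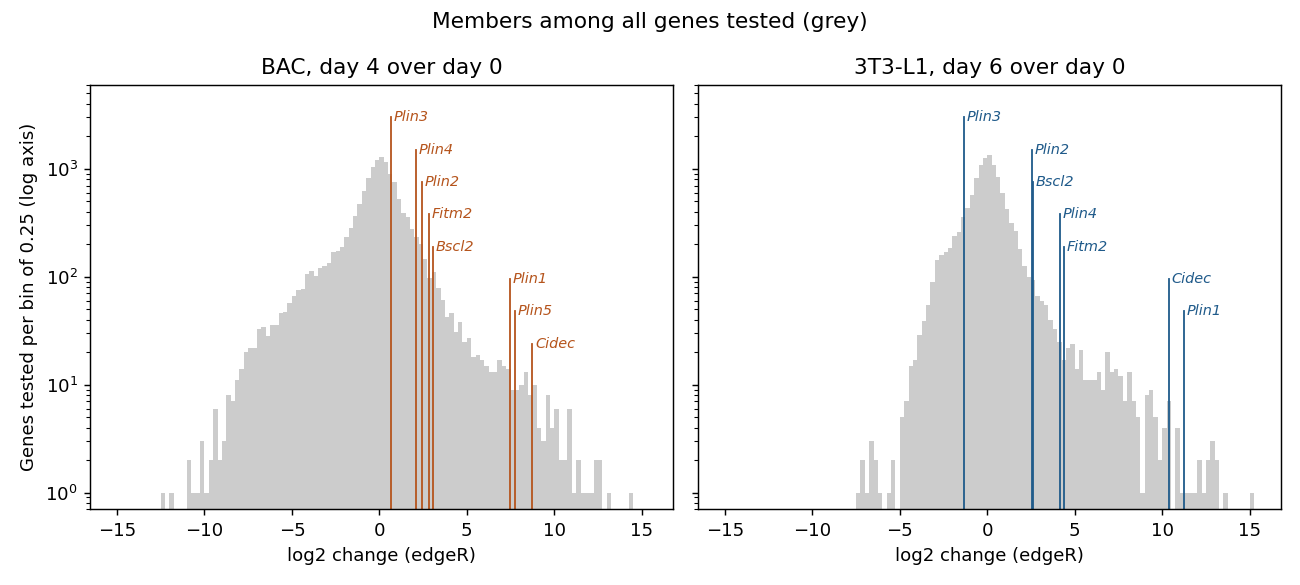
Number of genes tested per bin of 0.25 in log2 change (grey, log axis) for BAC (left) and 3T3-L1 (right), with the tested members other than Cidea marked by lines whose heights only space the names. Plin1 and Cidec stand in the right tail of both lines and Plin5 in that of BAC, and Plin3 lies near the centre.

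Some annotated genes overlap a member, and the sources used here do not say whether strand was used in counting. B430212C06Rik, on the strand opposite to Cidea, shares 500 bases with it and had 63 and 36 counts in BAC at day 4, against 20 and 11 counts in BAC at day 0. The antisense gene 2310001K24Rik shares 673 bases with Fitm2 and had 123 and 149 counts in BAC at day 4, against 23 and 19 counts in BAC at day 0. Gng3, opposite to Bscl2, shares 1728 bases with it and had at most 40 counts in any library. Hdgfl2 (with Plin4), Gm15932 (with Fitm1) and AC129217.1 (with Bscl2) were not counted under those names.

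Genes of triglyceride synthesis, the lipases at the droplet and other droplet proteins were followed beside the members. Of 14 genes of triglyceride synthesis, 11 of the 13 tested were higher and 2 lower in BAC, with a median log2 change of 2.34, and 14 of 14 were higher in 3T3-L1, with a median of 3.64. Over all genes tested, 39.1% were higher and 39.4% lower in BAC, and 39.8% and 39.6% in 3T3-L1, with medians of 0.0078 and 0.00073, beside which the counts of each list are to be read. Dgat2, which adds the last acyl chain of triglyceride, averaged 651.5 ± 48.4 CPM in BAC at day 4 and 12.7 ± 2.3 CPM in BAC at day 0 (log2 change 5.68 ± 0.12, edgeR adjusted p = 1.2e-14). It averaged 961.1 ± 5.7 CPM in 3T3-L1 at day 6 and 5.26 ± 1.4 CPM in 3T3-L1 at day 0 (7.51 ± 0.09, adjusted p = 1.0e-22). Acsl1, a long-chain acyl-CoA synthetase, rose by a log2 change of 5.11 ± 0.14 in BAC and 8.15 ± 0.08 in 3T3-L1. In BAC, Agpat2, whose loss also causes lipodystrophy in people, rose by 4.09 ± 0.13, and Lpin3, a phosphatidate phosphatase, fell by 1.04 on the log2 scale (adjusted p = 0.00026). In 3T3-L1, Mogat1, a monoacylglycerol acyltransferase, had 64 counts over both day 6 libraries and none at day 0, at least 26.1-fold higher. It passed the filter on low counts only through day 6, so its rise was fixed by the filter.

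All 8 genes of lipolysis at the droplet were higher in both lines, with a median log2 change of 6.05 in BAC and 6.45 in 3T3-L1. Pnpla2, the triglyceride lipase ATGL, rose by 7.01 ± 0.14 in BAC and 6.69 ± 0.07 in 3T3-L1, and G0s2, which inhibits ATGL, by 6.58 ± 0.13 and 10.13 ± 0.15. Pnpla3, a relative of ATGL, rose by 8.43 ± 0.21 in BAC, and in 3T3-L1 it had 1499 counts at day 6 and none at day 0, at least 612.2-fold higher. Pnpla3 had 7 counts over both BAC day 0 libraries, and G0s2 had 6 over both 3T3-L1 day 0 libraries. In these groups, and in 3T3-L1 day 0 for Pnpla3, the filter's minimum was not reached, so these rises were fixed by the filter. Among 20 other droplet proteins, 11 of 18 tested were higher and 3 lower in BAC (39.1% and 39.4% of all genes), and 12 of 19 were higher and 3 lower in 3T3-L1 (39.8% and 39.6% of all genes), with medians of 0.58 and 0.67. In both lines Clstn3 (7.40 ± 0.23 in BAC, 5.90 ± 0.19 in 3T3-L1) and the fatty acid carrier Fabp4 (7.24 ± 0.19 and 9.48 ± 0.15) were among the 3 with the most change. Mfn2, a mitochondrial fusion protein, was the other in BAC (2.10 ± 0.08), and Mettl7b was the other in 3T3-L1, with 190 counts at day 6 and 2 at day 0, a ratio of 116.4 with an exact 95% interval of 31.8 to 968.2. The rise of Mettl7b was likewise fixed by the filter. So were both rises of Clstn3, which had 14 counts over both BAC day 0 libraries and 15 over both 3T3-L1 day 0 libraries. Spg20, which codes for spartin, fell in both lines, by 1.14 in BAC and by 1.02 in 3T3-L1 on the log2 scale. In the difference between the lines, 1 of 14 genes of triglyceride synthesis was higher and 11 lower, 0 of 8 genes of lipolysis were higher and 4 lower, and 3 of 19 other droplet proteins were higher and 6 lower, beside the 25.3% and 33.7% of all genes. Genes with few counts at day 0 were not set apart in these lists, so the counts and medians of the lists are given as a description.

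The genes nearest in pattern to 3 members were listed by the root-mean-square (RMS) distance of their log2 CPM over the 8 libraries, after taking off each gene's mean, among 9561 genes. For Plin1 they were Adrb3 (0.31), Retn (0.57), Slc2a4 (0.81), Fabp4 (0.83) and Adipoq (0.83), which code for the beta-3 adrenergic receptor, resistin, the glucose transporter GLUT4, the fatty acid carrier and adiponectin. For Cidea no gene came as close: Chchd10 (1.58), Slc36a2 (1.60), Adck3 (1.88), Abi3 (1.95) and Phospho1 (2.02) were the first 5. Chchd10, a mitochondrial protein, had a log2 change of 9.54 in BAC and 0.06 in 3T3-L1. The others had positive changes in both lines. In BAC and 3T3-L1 these were 10.4 and 8.12 for Slc36a2, 6.80 and 2.54 for Adck3, 6.81 and 7.29 for Abi3, and 6.78 and 7.63 for Phospho1. Among the first 5 for Plin3 were 4 genes of ribosomal proteins, Rpl23 (0.063), Rps16 (0.081), Rpl28 (0.089) and Rpl37 (0.094). The log2 changes of these 4 were 0.49 to 0.71 in BAC and -1.50 to -1.19 in 3T3-L1, beside 0.64 and -1.33 for Plin3. These distances describe 8 libraries in 4 groups, and were not tested.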

How the data were processed

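RNA of 8 libraries (4 groups of 2) was sequenced. For each line the authors deposited raw gene counts, whole numbers that are not normalized. STAR, HTSeq and DESeq2 are named in the study's methods, but mm10, Bowtie2, DESeq2 1.4.5 and RSEM 1.3.1 in the processing notes of the submitters. No source used here says whether strand was used. Rows whose names had become dates (27 in the BAC table, at most 0.316% of a library) were left out. Columns were matched to samples by the labels, and no column of per-sample values was unused.

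Each line was fitted alone with edgeR 4.0.16 in R 4.3.3 (TMM factors, filterByExpr with a minimum count of 10, two-sided quasi-likelihood test, Benjamini-Hochberg adjusted p at 0.05). The difference in change was tested over all 8 libraries on the 21828 shared genes. The scripts were tested on simulated data. CPM used TMM-scaled library sizes within each line, and lengths were those of the longest GENCODE vM21 transcript paired with a RefSeq mRNA. Where a group had no counts, the fold is a lower bound set by a floor of 3 counts over that group. Replicates were compared by a chi-square per gene (1.87 to 5.17), and no pair of columns was identical. Alternatives were other scaling, no filter, DESeq2 1.42.0, each library left out, a replicate block and a joint fit. The members and lists were chosen with earlier results of these data known. Named genes were all 10 members, the 3 genes of each list and line with the largest change past the test and the largest against the list's majority, the 5 genes nearest in pattern to Plin1, Cidea and Plin3 (mean log2 CPM of at least 3, prior count 1, predicted genes left out), and genes that overlap a member; 1 of the 5 nearest to Plin3 is not reported here.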

Additional observations from a re-analysis of the deposited data

Results flagged for a closer look

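For 7 members the log2 change in BAC minus that in 3T3-L1 was past the test of this difference (edgeR over 8 libraries), Plin5 included. In Plin1 it was -3.83 (adjusted p = 2.2e-10), in Plin4 -2.12 (adjusted p = 2.7e-15) and in Fitm2 -1.60 (adjusted p = 1.5e-09). In Plin3, where the sign turned, it was 1.95 (adjusted p = 2.3e-14). These 4 were past the test under all 13 alternatives. In Cidec it was -1.68 (adjusted p = 0.034), lost under 7 of the 13 with values of -5.80 to -0.60, and in Bscl2 0.40 (adjusted p = 0.047), lost under 6 with values of 0.31 to 0.58. In Plin5 it was 6.29 (adjusted p = 0.0028), lost under 1 (0.093 without replicate 2 of 3T3-L1 day 0), but Plin5 passed the filter only through BAC day 4 and this difference supports nothing. Of all genes tested, 25.3% were higher and 33.7% lower. The days compared were 4 in BAC and 6 in 3T3-L1, so line and length of differentiation cannot be told apart.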

How the results depend on the processing

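In BAC and in 3T3-L1 each tested member kept its direction and its call under every alternative that gave a value (99 and 79 comparisons). Library size alone moved the median log2 change of all genes to -0.26 in BAC and -0.29 in 3T3-L1, and Plin3 was then at 0.38 and -1.62. For the difference between the lines, 97 comparisons were unchanged, 14 lost the call, 2 gained it and 4 turned sign. All 4 turns were in Plin2, which was 0.013 with upper-quartile factors and ranged over left-out libraries from -0.26 to 0.071. The number of members higher, Plin5 included, was 1 to 3 and lower 3 to 5 over the left-out libraries, with 1 higher without replicate 2 of 3T3-L1 day 0. The cause was not tested. Where 1 library stood for a group, it was assumed to vary like the others.

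The labels do not say whether same-numbered libraries belong together, and the main fits used no replicate block. The deviations of same-numbered BAC libraries had r = 0.0045 over 14028 genes, which cannot settle it. With a replicate block, 5528 genes were higher and 5571 lower in BAC, and 9 members were higher; no block could be fitted for 3T3-L1, whose groups share a single number.

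An exon union length, chosen after seeing the data, moved the perilipin shares. In BAC at day 4 they were Plin1 25.7%, Plin2 36.6%, Plin3 9.10%, Plin4 19.5% and Plin5 9.07%. In BAC at day 0 they were Plin2 38.6%, Plin3 33.7% and Plin4 26.7%. In 3T3-L1 at day 6 they were Plin1 32.1%, Plin2 20.1% and Plin4 46.4%, and at day 0 Plin2 36.0%, Plin3 37.1% and Plin4 26.7%. Depth limits Plin5 and Cidea in 3T3-L1, Fitm1 in both lines and the day 0 counts of Cidec.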

Other observations

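The genes beside Plin5 were looked at after their values were seen. Lrg1, which codes for a secreted leucine-rich glycoprotein and is the next protein-coding gene after Plin5, had 2076 counts over both libraries of BAC day 4, against 3 counts in BAC day 0, and 157 counts in 3T3-L1 day 6, against 4 counts in 3T3-L1 day 0 (log2 change 5.49 ± 0.42, edgeR adjusted p = 2.7e-10). Lrg1 did not reach the filter's minimum at day 0 of either line. Its rises were therefore fixed by the filter and are given as a description. Plin5, with 7 counts in 3T3-L1 day 6, lies between Plin4, which rose in that line, and Lrg1. Sema6b, after Lrg1, had 293 counts in BAC day 4, against 37 counts in BAC day 0 (3.39 ± 0.21, adjusted p = 1.1e-09), and 3 counts in 3T3-L1 day 6, against 8 counts in 3T3-L1 day 0, and was not tested in that line. Ubxn6, on the far side of Plin4, rose by 0.44 ± 0.08 in BAC (adjusted p = 0.00023) and had a log2 change of 0.01 ± 0.08 in 3T3-L1 (adjusted p = 0.87).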
